A study of Mus musculus with 16 samples.

Results

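Transcripts of 8 inhibitory checkpoint receptors, Pdcd1, Ctla4, Btla, Cd160, Havcr2, Lag3, Tigit and Entpd1, were examined in mouse TCF1+CD8+ T cells that had been exposed to prostaglandin E2 (PGE2), to T cell receptor stimulation or to both. The 8 genes were selected by name from a count table of 54532 genes, and all 8 were present and passed the filter on low counts in every comparison. Naive CD8+ T cells from the spleens of C57BL/6J mice had been differentiated in vitro for 4 days through repeated bead activation in the presence of IL-2, and the resulting cells were profiled by poly(A) RNA-seq in 16 samples, with 4 replicates in each of 4 groups. The question posed by the design was how PGE2 changes transcription in these antigen-experienced, stem-like T cells when they receive IL-2 alone or IL-2 together with an antigen-receptor signal. Unstimulated untreated cells were first incubated for 1 h without PGE2 and then received IL-2 at 85 U per ml for 4 h without beads. Unstimulated PGE2 cells were first incubated for 1 h with PGE2 at 100 ng per ml and then received the same IL-2. After 1 h without PGE2, stimulated untreated cells received IL-2 plus anti-CD3/CD28 beads at 1 bead per cell for 4 h. Stimulated PGE2 cells received PGE2 for 1 h before IL-2 and beads. Every group, the unstimulated groups included, had therefore met beads and IL-2 during the 4 days of culture. The labels do not say whether replicates came from separate mice or cultures, so the p-values measure the spread between these samples.

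Inhibitory checkpoint receptors are surface molecules that dampen T cell activation when they meet their ligands on other cells. They are induced by antigen-receptor signals in healthy responses, and several of them stay high together on exhausted T cells in chronic infection and in tumours, where PD-1, CTLA-4 and LAG-3 are targets of therapeutic antibodies. PGE2 is a lipid mediator that acts on T cells through the receptors EP2 and EP4, which raise cyclic AMP.

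The summed counts ranged from 22678254 to 42950763 per sample. All 6 markers of CD8 T cells (Cd3e, Cd3g, Cd8a, Cd8b1, Tcf7 and Cd44) were found in every group, and their summed level was between 2557 and 4071 CPM (read counts normalized to library size, with TMM factors over the 16 samples). They summed to 3224 to 4071 CPM in unstimulated untreated and 2804 to 3638 CPM in unstimulated PGE2 samples. In stimulated samples the sums were 2906 to 3154 CPM without PGE2 and 2557 to 2687 CPM with PGE2. The mean of Cd8a went from 987 to 719 CPM with PGE2 in unstimulated cells and from 1151 to 855 CPM in stimulated cells. That of Cd3e went from 318 to 323 and from 225 to 236 CPM. Tcf7, which encodes TCF1, was at 289 CPM or more in every sample, but its level differed between the states. Its means were 1175 CPM in unstimulated untreated and 1187 CPM in unstimulated PGE2 cells. They were 309 CPM in stimulated untreated and 407 CPM in stimulated PGE2 cells. Cd4 did not exceed 1.87 CPM in any sample. Markers of erythroid cells summed to at most 0.821 CPM and those of myeloid cells to at most 6.57 CPM. The list of 5 markers of CD4 T and regulatory T cells, which holds Ikzf4 and Zbtb7b at 10.3 to 45.0 CPM and Foxp3 at 3.09 to 9.07 CPM, summed to 45.9 to 55.2 CPM in unstimulated untreated samples against 61.1 to 72.8 CPM in unstimulated PGE2 samples. It summed to 40.2 to 54.4 CPM in stimulated untreated samples against 55.3 to 71.0 CPM in stimulated PGE2 samples. Within this list, Ikzf4 went from a mean of 20.7 to 32.9 CPM with PGE2 in unstimulated cells and from 25.7 to 38.5 CPM in stimulated cells, whereas Foxp3, the defining regulatory T cell factor, had means of 5.93 and 5.52 CPM and of 4.24 and 4.33 CPM. Ctla4, Tigit and Entpd1 are also transcribed in regulatory T cells, and the part of such cells in the values below was not tested. Of 5 markers of NK cells, which also carry Cd160 and Havcr2, Ncr1 had 0 reads in every sample and Klrb1c at most 3 reads, and only Eomes, which effector CD8 T cells share, reached a mean of 1 CPM in any group. The list summed to 13.3 to 24.7 CPM in unstimulated untreated, 6.22 to 11.6 CPM in unstimulated PGE2, 113 to 179 CPM in stimulated untreated and 38 to 129 CPM in stimulated PGE2 samples. Cd79b, which B cells carry as part of their antigen receptor, reached 15.1 CPM at most.

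The promoters of the 5 receptors that changed with PGE2 in unstimulated cells are shown first, because the receptors moved in both directions. Each is the 250 bases before the gene start in the RefSeq table for GRCm38.p6, read 5′ to 3′ on the strand of the gene. The RefSeq starts of Pdcd1, Ctla4, Btla and Cd160 are also starts of GENCODE M21 transcripts, and that of Tigit lies 38 bases upstream of the GENCODE transcript, which begins within the following bases on the same strand. The GENCODE gene spans given below begin 22025 bases upstream of this start for Ctla4 and 22 bases upstream for Btla, each with another transcript. Capitals mark the NFAT core GGAAA, searched on both strands and therefore also seen as TTTCC. Pdcd1, Ctla4 and Tigit rose.
Pdcd1, chr1:94052554-94052803, minus strand: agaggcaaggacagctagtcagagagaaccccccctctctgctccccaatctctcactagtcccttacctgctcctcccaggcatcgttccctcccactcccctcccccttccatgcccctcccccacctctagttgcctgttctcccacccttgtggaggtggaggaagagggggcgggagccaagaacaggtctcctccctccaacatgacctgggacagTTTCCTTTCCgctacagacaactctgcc
Ctla4, chr1:60908775-60909024, plus strand: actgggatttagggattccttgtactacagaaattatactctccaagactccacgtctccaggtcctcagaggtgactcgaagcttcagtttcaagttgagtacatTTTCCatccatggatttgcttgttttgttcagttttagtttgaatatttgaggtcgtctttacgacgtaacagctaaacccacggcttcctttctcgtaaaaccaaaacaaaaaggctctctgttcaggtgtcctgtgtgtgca
Tigit, chr16:43664185-43664434, minus strand: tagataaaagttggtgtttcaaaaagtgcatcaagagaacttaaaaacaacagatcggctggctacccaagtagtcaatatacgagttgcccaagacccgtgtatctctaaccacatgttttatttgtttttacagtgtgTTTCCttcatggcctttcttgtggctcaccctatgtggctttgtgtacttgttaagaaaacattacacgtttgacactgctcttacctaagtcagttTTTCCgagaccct
Btla and Cd160 fell.
Btla, chr16:45224087-45224336, plus strand: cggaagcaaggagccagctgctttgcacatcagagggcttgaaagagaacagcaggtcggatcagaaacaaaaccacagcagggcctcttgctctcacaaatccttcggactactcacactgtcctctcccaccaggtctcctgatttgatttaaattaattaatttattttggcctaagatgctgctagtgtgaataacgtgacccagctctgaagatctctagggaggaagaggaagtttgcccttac
Cd160, chr3:96829352-96829601, minus strand: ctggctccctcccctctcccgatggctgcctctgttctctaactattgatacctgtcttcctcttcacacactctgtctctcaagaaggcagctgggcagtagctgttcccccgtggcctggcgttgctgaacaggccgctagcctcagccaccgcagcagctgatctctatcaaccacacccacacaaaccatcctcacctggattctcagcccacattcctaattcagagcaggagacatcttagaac
The NFAT core was found 2 times in the Pdcd1 window, at 28 to 24 and at 23 to 19 bases before the start, and 2 times in the Tigit window, at 110 to 106 and at 13 to 9 bases before the start. It was found 1 time in the Ctla4 window, at 144 to 140 bases before the start, and 0 times in the windows of Btla and Cd160. Of 32851 promoters of the same length, 55.6% held this core. The letters TGACG, the core of the cyclic AMP response element bound by CREB, were found on neither strand in these 5 windows and in 17.8% of all promoters. The full element TGACGTCA was in 1.55% of all promoters and in none of the windows of the members. The table held 9 windows for 7 of the 8 members. A further window of Cd160, chr3:96814522-96814771, held 1 TGACG and 1 NFAT core. Both Entpd1 windows held 1 TGACG each. The Entpd1 window chr19:40659520-40659769 also held 2 NFAT cores, at 233 to 229 and at 130 to 126 bases before the start. Entpd1 was not called with PGE2 in either state, so NFAT cores were not confined to the receptors that rose. The Havcr2 window held the AP-1 element TGANTCA, which was in 6.75% of all promoters. These matches are descriptions of letters, and binding was not measured.

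Levels of different genes were compared in FPKM, which divides by gene length. Ctla4, the CD28 relative that competes for B7 ligands, was the most abundant of the 8 transcripts in every group, with a mean of 326 ± 31.5 FPKM (SD, n = 4) in unstimulated untreated cells and 485 ± 18.9 FPKM in unstimulated PGE2 cells. It made up 79.1% of the summed FPKM of the 8 transcripts in unstimulated untreated cells, 80.8% in unstimulated PGE2 cells, 44.4% in stimulated untreated cells and 62.8% in stimulated PGE2 cells. Lag3 ranked next, at 36.3 ± 7.59 FPKM in unstimulated untreated cells and 119 ± 5.81 FPKM in stimulated untreated cells, and Tigit followed at 19.5 ± 3.61 and 57.1 ± 6.51 FPKM. Lag3 and Tigit did not overlap in the groups without PGE2 and overlapped in both groups with PGE2. Btla, Pdcd1 and Cd160 lay between 3.55 and 36.4 FPKM as group means. Their order changed from Btla, Pdcd1, Cd160 in unstimulated untreated cells to Pdcd1, Btla, Cd160 in unstimulated PGE2 cells, and in both stimulated groups each of the 3 overlapped with the next of them in the order. Havcr2 and Entpd1 were the least abundant, with Havcr2 at 0.871 ± 0.411 FPKM and Entpd1 at 1.54 ± 0.176 FPKM in unstimulated untreated cells. With stimulation they changed places, Havcr2 reaching 6.48 ± 1.06 FPKM and Entpd1 0.766 ± 0.266 FPKM without PGE2.

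**Figure D1:**
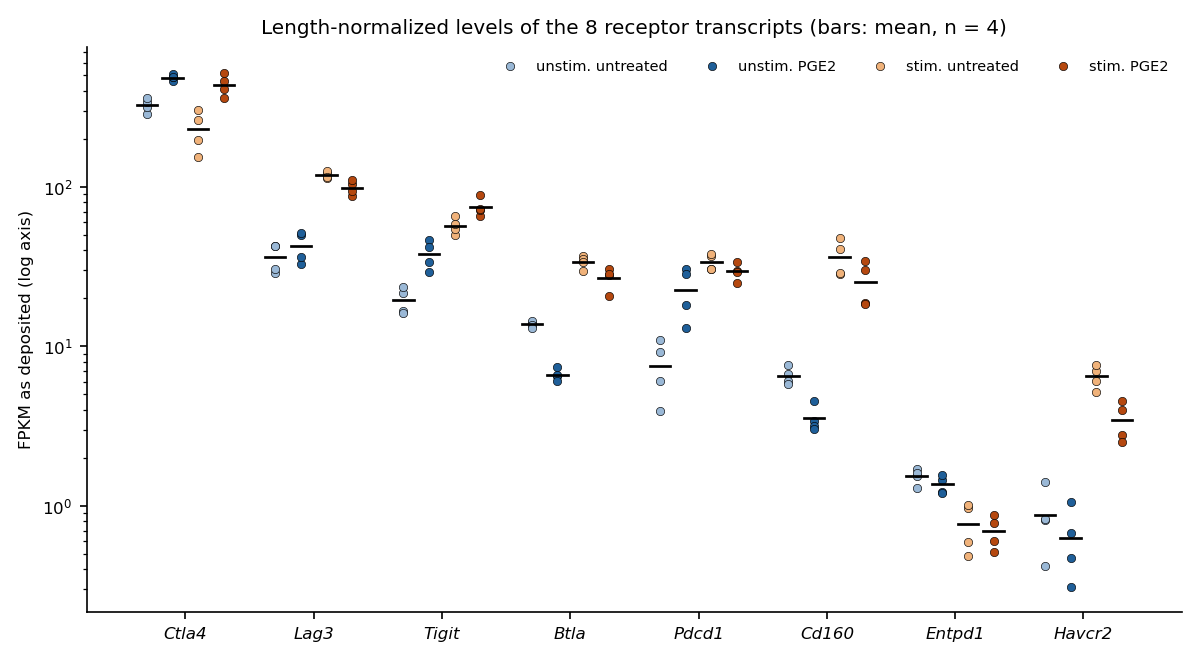
FPKM of the 8 receptor transcripts on a log axis, with 1 point per sample, colours for the 4 groups and bars at the mean of 4 samples. Ctla4 is above all other members in every group, and Havcr2 and Entpd1 are the lowest.

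PGE2 changed 5 of the 8 receptors in unstimulated cells, where Pdcd1, Ctla4 and Tigit rose and Btla and Cd160 fell. A gene was called when its Benjamini-Hochberg adjusted p in the quasi-likelihood test of edgeR was below 0.05, and 28.4% of the genes tested in this comparison were called, 12.9% as higher and 15.5% as lower. In stimulated cells 2 of the 8 were called, Ctla4 as higher and Havcr2 as lower, where 9.84% of the genes tested were called, 6.04% as higher and 3.8% as lower. The median log2 fold change of the 8 was 0.03 in unstimulated and -0.22 in stimulated cells, against -0.00102 and -0.00611 over all genes tested. Stimulation without PGE2 changed all 8, with 6 higher and Ctla4 and Entpd1 lower, where 66.5% of genes were called (31.7% higher, 34.8% lower), and their median was 1.61 against -0.03 over all genes. With PGE2, stimulation raised 5 (Btla, Cd160, Havcr2, Lag3 and Tigit) and lowered Entpd1, where 64.2% of genes were called (32.5% higher, 31.7% lower), and the median was 1.13 against 0.00222. The stimulation comparisons thus called most genes, and their counts are read against that share. Groups did not overlap for 7 of the 8 on stimulation without PGE2, against 61.6% of genes, and for 6 of the 8 with PGE2, against 60.2%. The labels do not say that samples of like number belong together, and the main fit did not pair them. From correlations given with the processing, the numbers were taken to pair samples in both PGE2 comparisons and for stimulation without PGE2. Beside the main fit, a fit with the replicate number as a block compared samples of like number within each comparison. It is given where it changed a call: it raised the count from 5 to 7 in unstimulated cells, where it called 47.8% of all genes tested, and from 2 to 6 in stimulated cells, where it called 39.8%. The members that the block added were Havcr2 and Lag3 in unstimulated cells and Btla, Cd160, Lag3 and Tigit in stimulated cells. A member not called in the main fit is therefore not shown to be unchanged by PGE2. In bulk RNA, fewer cells that carry a transcript and less of it per cell cannot be told apart.

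**Figure D2:**
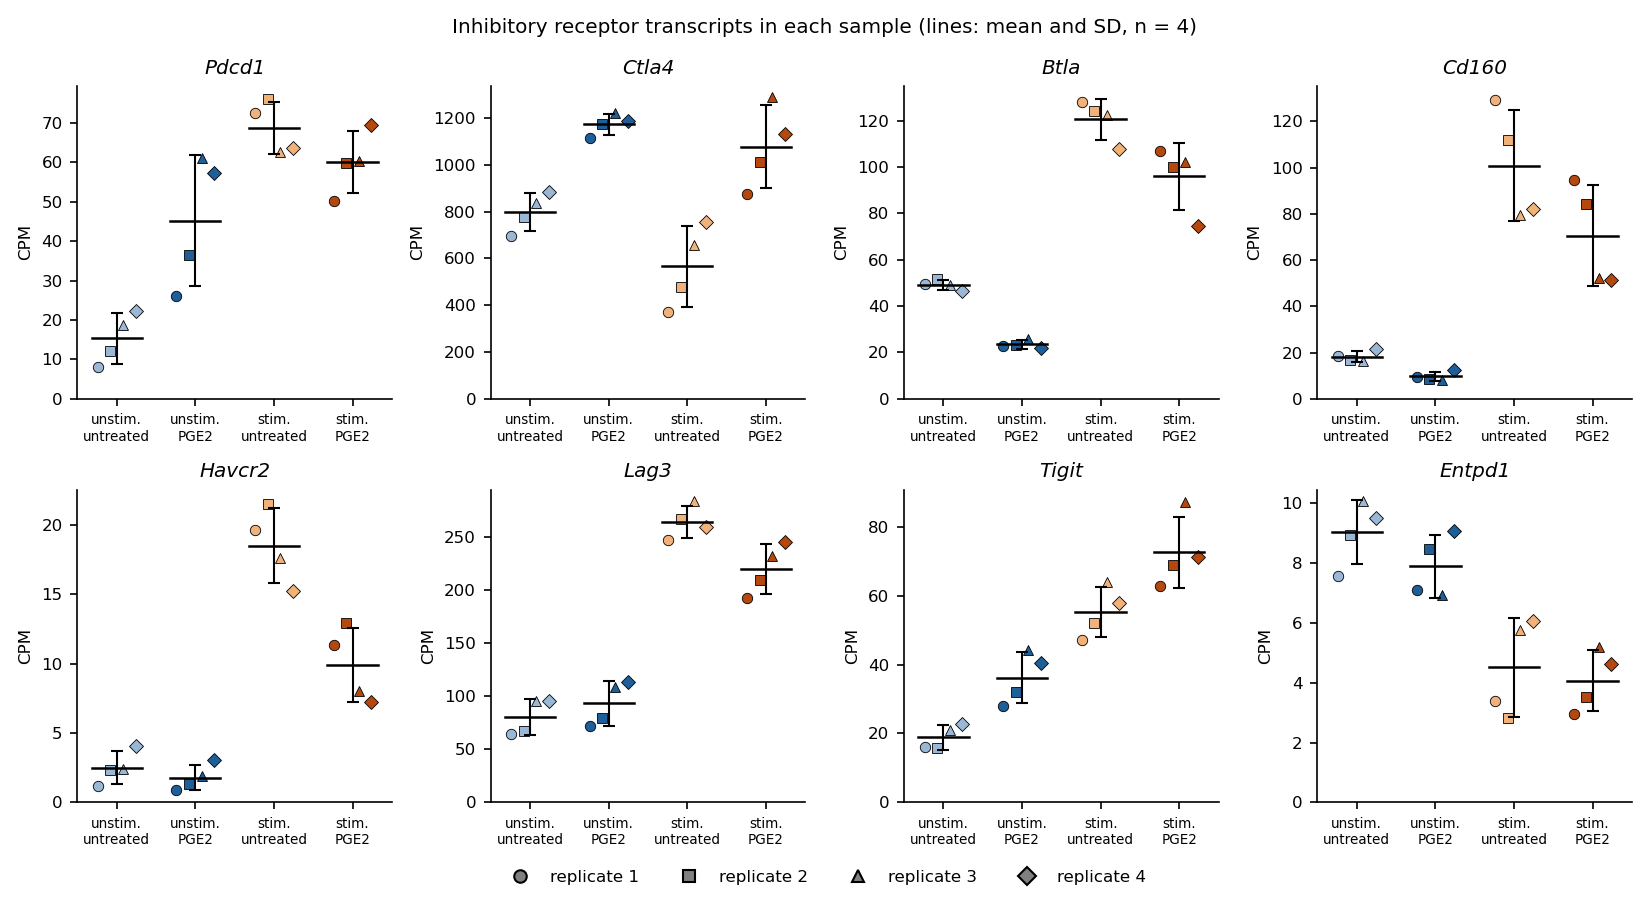
CPM of each of the 8 transcripts in the 16 samples, with marker shapes for replicate numbers and lines for the mean and SD of 4 samples per group, each axis starting at 0. In unstimulated cells Pdcd1, Ctla4 and Tigit lie higher with PGE2 and Btla and Cd160 lower, without overlap of the groups.

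Pdcd1 encodes PD-1, which recruits the phosphatase SHP-2 to the antigen receptor and CD28 (chromosome 1, 94038305 to 94052553, minus strand). Its levels in replicates 1 to 4 were 7.98, 12.3, 18.8 and 22.2 CPM in unstimulated untreated cells and 26.2, 36.4, 61.0 and 57.3 CPM in unstimulated PGE2 cells. They were 72.5, 76.0, 62.7 and 63.6 CPM in stimulated untreated cells and 50.2, 59.9, 60.4 and 69.4 CPM in stimulated PGE2 cells. All 4 unstimulated samples with PGE2 were above all 4 without, as for 28.9% of genes in either direction, and replicates 1 were lowest in both groups. In unstimulated cells the log2 fold change with PGE2 was 1.58 ± 0.323 (SE), a 2.98-fold rise (adjusted p = 0.00378), and within replicate numbers it ranged from 1.37 to 1.71. In stimulated cells the difference was -0.19 ± 0.102 (adjusted p = 0.259), with 3 of 4 numbers lower with PGE2 and overlapping groups. Stimulation raised Pdcd1 by 2.14 ± 0.236 without PGE2 (adjusted p = 4.95e-06), whereas the difference with PGE2 was 0.41 ± 0.234 (adjusted p = 0.145). The level in unstimulated PGE2 cells thus lay between that in unstimulated untreated cells and that in stimulated cells, overlapping with stimulated PGE2 cells.

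Ctla4 (chromosome 1, 60887000 to 60915832, plus strand) was the transcript that was called as higher with PGE2 in both states. Unstimulated untreated cells held 697, 776, 838 and 883 CPM and unstimulated PGE2 cells 1113, 1174, 1220.4 and 1185 CPM. Stimulated untreated cells held 371, 478, 657 and 757 CPM, and stimulated PGE2 cells 876, 1012, 1290.3 and 1129.9 CPM. In each state the PGE2 groups were above the untreated groups without overlap, which 17.9% of genes showed in stimulated cells in either direction. The rise was 0.58 ± 0.082 in unstimulated cells (1.49-fold, adjusted p = 0.000374) and 0.93 ± 0.211 in stimulated cells (1.91-fold, adjusted p = 0.0225). The call in stimulated cells was lost without replicate 2 of the stimulated untreated group (adjusted p = 0.0803) and without replicate 3 of the stimulated PGE2 group (adjusted p = 0.0725), and the blocked fit gave an adjusted p of 2.27e-05. Stimulation without PGE2 lowered Ctla4 by a log2 fold change of -0.52 ± 0.172 (adjusted p = 0.0177), with each number lower but overlapping groups. That call was lost without replicate 4 of the unstimulated untreated group (adjusted p = 0.0513) or replicate 2 of the stimulated untreated group (adjusted p = 0.0657). With PGE2 the difference on stimulation was -0.11 ± 0.103 (adjusted p = 0.362), and it was called without replicate 3 of the stimulated PGE2 group (adjusted p = 0.0415).

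Btla and Cd160 both bind the ligand HVEM, encoded by Tnfrsf14, and both were lower with PGE2. Btla, an immunoglobulin-family receptor with inhibitory tyrosine motifs (chromosome 16, 45224315 to 45257670, plus strand), was at 49.7, 51.6, 48.9 and 46.5 CPM in unstimulated untreated cells and at 22.8, 23.3, 26.0 and 21.7 CPM in unstimulated PGE2 cells. Stimulated untreated cells had 128, 124, 122 and 108 CPM, and stimulated PGE2 cells had 107, 100.1, 102 and 74.5 CPM. None of the 4 groups overlapped with the next in the order, which ran from stimulated untreated through stimulated PGE2 and unstimulated untreated to unstimulated PGE2. The fall with PGE2 in unstimulated cells was -1.05 ± 0.073 (2.06-fold lower, adjusted p = 5.2e-06). In stimulated cells the difference was -0.32 ± 0.110 (adjusted p = 0.0943; adjusted p = 0.000688 with the replicate block). Stimulation raised Btla by 1.28 ± 0.078 without PGE2 (adjusted p = 4.29e-08) and by 2.05 ± 0.125 with PGE2 (adjusted p = 1.19e-06).

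Cd160, a glycolipid-anchored receptor (chromosome 3, 96798763 to 96829351, minus strand), was at 18.6, 16.8, 16.2 and 21.4 CPM in unstimulated untreated cells and at 9.35, 8.70, 8.26 and 12.6 CPM in unstimulated PGE2 cells. Stimulated untreated cells had 129, 112, 79.7 and 82.2 CPM, and stimulated PGE2 cells had 94.5, 84.2, 52.5 and 51.4 CPM. The unstimulated groups did not overlap, whereas the stimulated groups did, with replicates 1 and 2 above replicates 3 and 4 in both. Cd160 fell with PGE2 by -0.88 ± 0.141 in unstimulated cells (1.85-fold lower, adjusted p = 0.000776). In stimulated cells the difference was -0.50 ± 0.223, with all 4 numbers lower (adjusted p = 0.178; adjusted p = 3.79e-05 with the replicate block). Stimulation raised Cd160 by 2.46 ± 0.163 without PGE2 (adjusted p = 7.9e-08) and by 2.88 ± 0.232 with PGE2 (adjusted p = 2.9e-06). Of its exon bases, 2.57% lie opposite those of Pdzk1, which was at 0.136 CPM on average, and the use of strand in counting is not stated.

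**Figure D3:**
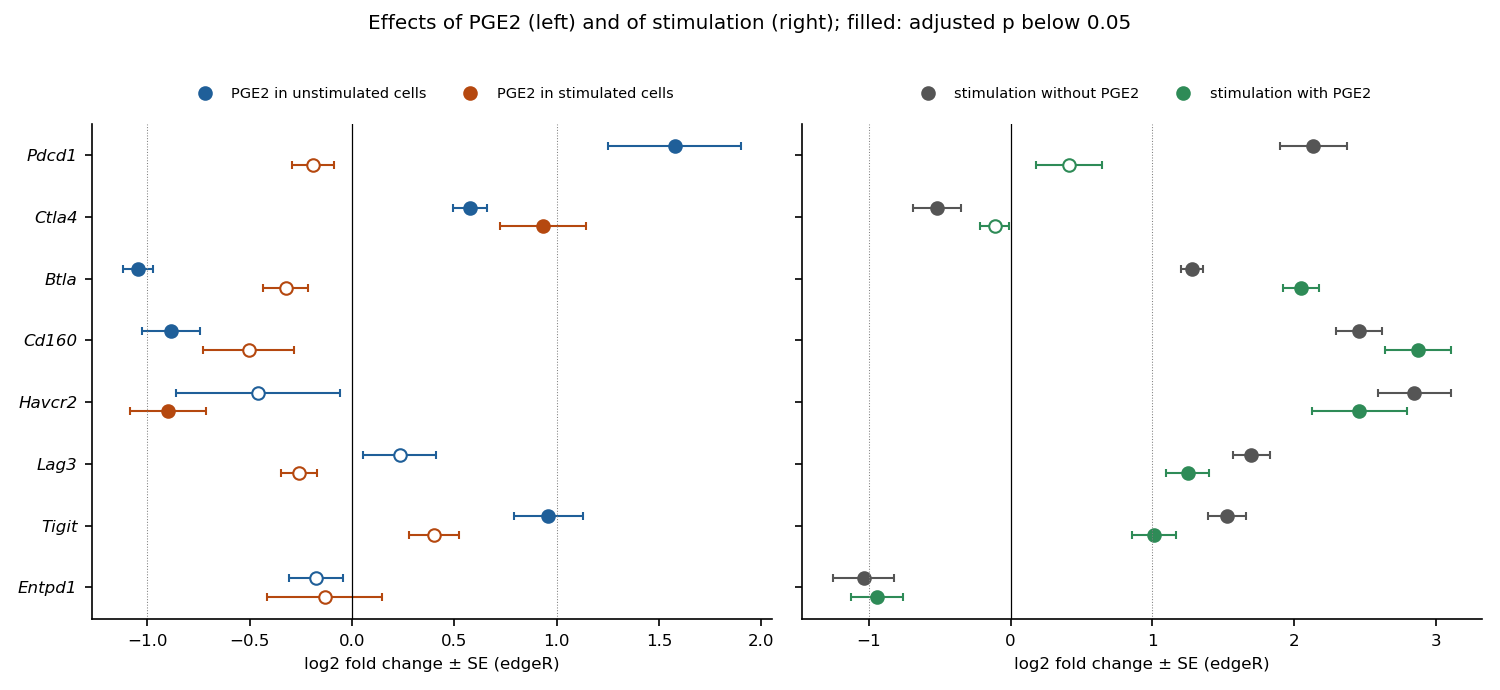
The edgeR log2 fold change ± SE of the 8 transcripts for PGE2 in each state (left) and for stimulation without and with PGE2 (right), with filled points for adjusted p below 0.05 and dotted lines at a fold change of 2. With PGE2, Pdcd1 is at 1.58 in unstimulated and -0.19 in stimulated cells, and Btla at -1.05 and -0.32.

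Havcr2 encodes TIM-3, a receptor found on effector and terminally exhausted rather than stem-like CD8+ T cells (chromosome 11, 46454935 to 46481255, plus strand). In unstimulated cells it was low, with 27, 70, 85 and 135 reads without PGE2 (1.19, 2.33, 2.39 and 4.07 CPM) and 25, 47, 69 and 119 reads with PGE2 (0.879, 1.32, 1.90 and 3.03 CPM). After stimulation it was at 19.7, 21.5, 17.6 and 15.2 CPM without PGE2 and at 11.3, 12.9, 8.05 and 7.26 CPM with PGE2. The stimulated groups did not overlap, and the unstimulated groups did. The fall with PGE2 in stimulated cells was -0.90 ± 0.186 (1.86-fold lower, adjusted p = 0.0155), with all 4 numbers lower by -0.73 to -1.13. Without replicate 2 of the stimulated untreated group the adjusted p was 0.0579, without replicate 3 of the stimulated PGE2 group it was 0.0545, and with the replicate block it was 2.51e-05. In unstimulated cells the difference was -0.46 ± 0.399 (adjusted p = 0.438; adjusted p = 0.0286 with the replicate block). The rise on stimulation without PGE2 was the largest of the 8 in the main fit, at 2.85 ± 0.256 (7.20-fold, adjusted p = 8.06e-07). This rank depended on the processing: the lowest value in other settings was 2.01, below the lowest of Cd160, 2.28. With PGE2 the rise of Havcr2 was 2.46 ± 0.336 (adjusted p = 8.32e-05), less than that of Cd160, 2.88.

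Lag3, a CD4 relative that binds MHC class II and other ligands (chromosome 6, 124904361 to 124911705, minus strand), was at 64.1, 67.2, 95.6 and 95.1 CPM in unstimulated untreated cells and at 71.6, 79.4, 108 and 113 CPM in unstimulated PGE2 cells. It was at 248, 267, 284 and 259.7 CPM in stimulated untreated cells and at 193, 210.1, 233 and 246 CPM in stimulated PGE2 cells. The stimulated groups did not overlap and the unstimulated groups did, with replicates 3 and 4 above replicates 1 and 2 in both unstimulated groups. The difference with PGE2 was 0.23 ± 0.179 in unstimulated cells, higher in 4 of 4 numbers (adjusted p = 0.373; adjusted p = 6.79e-05 with the replicate block). In stimulated cells it was -0.26 ± 0.088, lower in 4 of 4 numbers (adjusted p = 0.0924; adjusted p = 0.00237 with the replicate block). Lag3 was raised by stimulation by 1.70 ± 0.132 without PGE2 (adjusted p = 2.4e-07) and by 1.25 ± 0.152 with PGE2 (adjusted p = 3.67e-05).

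Tigit encodes a receptor for CD155, the product of Pvr, and for nectins (chromosome 16, 43648867 to 43664146, minus strand). It was at 16, 15.7, 21 and 22.8 CPM in unstimulated untreated cells and at 28.0, 32, 44.3 and 40.4 CPM in unstimulated PGE2 cells. Stimulated untreated cells had 47.1, 52.1, 64.0 and 57.9 CPM, and stimulated PGE2 cells had 62.9, 69.0, 87.2 and 71.2 CPM. The 2 stimulated groups overlapped by 1 sample, replicate 1 of the PGE2 group, which lay below replicate 3 of the untreated group. Tigit rose with PGE2 by 0.96 ± 0.168 in unstimulated cells (1.95-fold, adjusted p = 0.00141). In stimulated cells the difference was 0.40 ± 0.122, higher in 4 of 4 numbers by 0.30 to 0.45 (adjusted p = 0.0652; adjusted p = 7.41e-05 with the replicate block), and it was called without replicate 1 of the stimulated PGE2 group (adjusted p = 0.0276). Stimulation raised Tigit by 1.53 ± 0.132 without PGE2 (adjusted p = 5.96e-07) and by 1.01 ± 0.153 with PGE2 (adjusted p = 0.000172).

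Entpd1 encodes CD39, the ectoenzyme that removes phosphates from extracellular ATP and ADP and so feeds adenosine formation (chromosome 19, 40612366 to 40741602, plus strand). It was at 7.59, 8.96, 10.1 and 9.52 CPM in unstimulated untreated cells and at 7.10, 8.47, 6.94 and 9.09 CPM in unstimulated PGE2 cells. With 77 to 175 reads per sample, stimulated untreated cells had 3.39, 2.83, 5.78 and 6.08 CPM, and stimulated PGE2 cells had 2.96, 3.52, 5.20 and 4.61 CPM. The PGE2 groups overlapped with the untreated groups in both states, while every stimulated sample was below every unstimulated sample. The differences with PGE2 were -0.17 ± 0.130 in unstimulated cells (adjusted p = 0.36) and -0.13 ± 0.279 in stimulated cells (adjusted p = 0.785). Stimulation lowered Entpd1 by a log2 fold change of -1.04 ± 0.216 without PGE2 (adjusted p = 0.000942) and -0.94 ± 0.182 with PGE2 (adjusted p = 9e-04), and it was the member that fell on stimulation in both conditions.

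**Figure D4:**
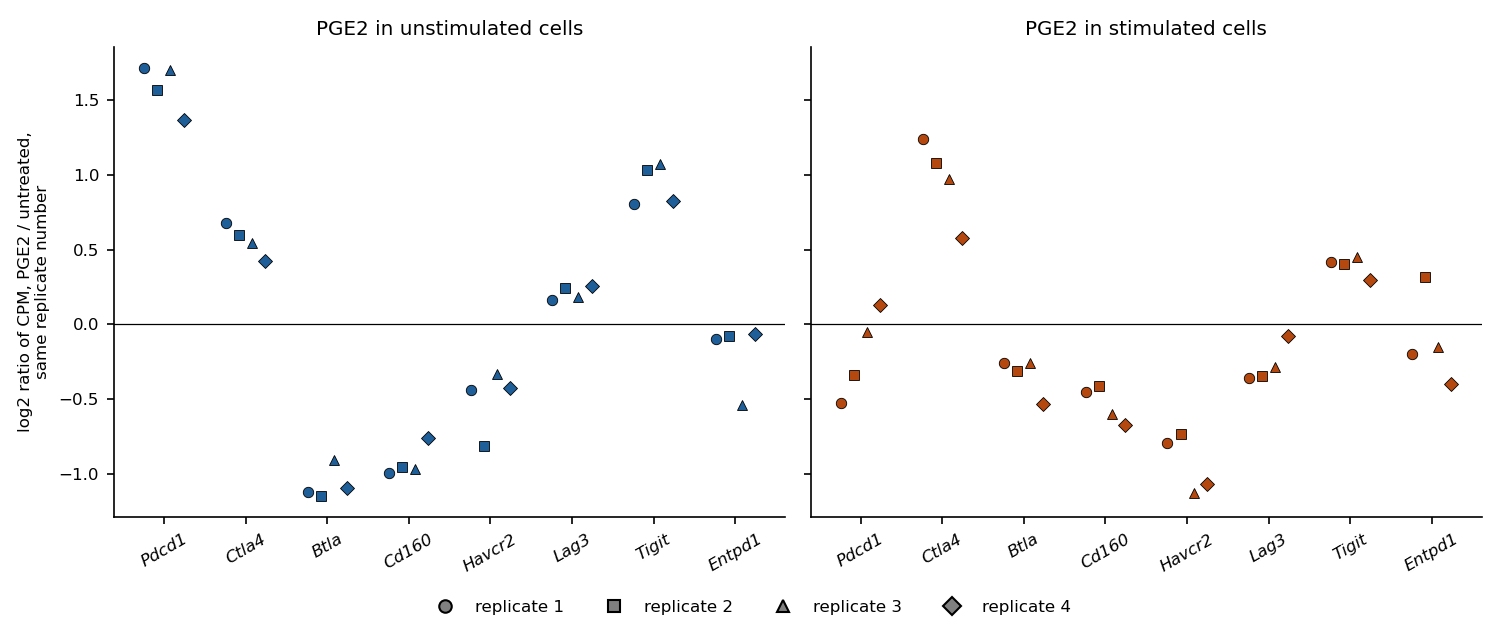
The log2 ratio of CPM with PGE2 over CPM without, within each replicate number, in unstimulated (left) and stimulated (right) cells. Ctla4 and Tigit are above 0 and Btla, Cd160 and Havcr2 below 0 in all 4 numbers of both states, whereas Pdcd1 is at 1.37 to 1.71 on the left and -0.53 to 0.13 on the right.

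Whether the effect of PGE2 differed between stimulated and unstimulated cells was tested as an interaction over all 16 samples. It was called for 2 of the 8 receptors, where 0.749% of genes were called. The effect on Pdcd1 was lower in stimulated cells by a log2 difference of -1.75 ± 0.365 (adjusted p = 0.0316). This call was lost in 9 of 16 fits that left out 1 library, with adjusted p from 0.0521 to 0.0866: replicate 2 of the unstimulated untreated group, replicates 3 and 4 of the unstimulated PGE2 group, replicates 1, 2 and 3 of the stimulated untreated group and replicates 1, 2 and 3 of the stimulated PGE2 group. The effect on Btla was less negative in stimulated cells, with a difference of 0.74 ± 0.136 (adjusted p = 0.0155), and this call was lost without replicate 2 of the unstimulated untreated group (adjusted p = 0.0545). Neither was called with limma on FPKM. For Lag3 and Tigit the differences were -0.48 ± 0.210 (adjusted p = 0.479; adjusted p = 0.0477 with the replicate block) and -0.54 ± 0.215 (adjusted p = 0.405; adjusted p = 0.0101 with the replicate block). The blocked fit thus called 4 of the 8, and 2.7% of all genes. It ties like numbers across every group, although they were not taken to pair samples for stimulation with PGE2. In the main fit the differences of Ctla4 (0.37 ± 0.233), Cd160 (0.39 ± 0.288), Havcr2 (-0.42 ± 0.447) and Entpd1 (0.06 ± 0.310) had adjusted p-values of 0.723 to 0.993.

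Of 11 ligands of the receptors that passed the filter, stimulation without PGE2 raised 3: Cd274, which encodes PD-L1, by 2.80 ± 0.166, Pdcd1lg2, which encodes PD-L2, by 2.38 ± 0.247 and Cd80, a ligand of CTLA-4 and CD28, by 1.85 ± 0.261. It lowered 3, among them Lgals3, which encodes galectin-3, at -0.72 ± 0.143. The median of the 11 was 0.23, against -0.03 over all genes, of which 66.5% were called. In Cd274, 14.1% of the exon bases lie opposite an antisense gene. With PGE2 in unstimulated cells 1 ligand rose, Pvr, the ligand of TIGIT, by 0.49 ± 0.116, and 2 fell, Lgals3 at -0.60 ± 0.155 and Lgals9, which encodes the TIM-3 ligand galectin-9, at -0.29 ± 0.05, where 28.4% of all genes were called. In stimulated cells 0 rose and Lgals9 fell at -0.28 ± 0.063 (adjusted p = 0.021 by edgeR), a call that was kept in 3 of 8 fits that left out 1 library (highest adjusted p = 0.0692). With the replicate block, 5 rose and 2 fell in unstimulated cells and 3 rose and 5 fell in stimulated cells, where the block called 47.8% and 39.8% of all genes.

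All 9 costimulatory receptors examined, which belong to the immunoglobulin and TNF receptor superfamilies, changed on stimulation without PGE2, with 5 higher and 4 lower, where 31.7% of all genes were higher and 34.8% lower. Tnfrsf4 (OX40) rose by 2.84 ± 0.373, Tnfrsf9 (4-1BB) by 2.78 ± 0.266, Tnfrsf18 (GITR) by 1.40 ± 0.167 and Icos by 1.31 ± 0.078. With PGE2 in unstimulated cells 4 rose and 2 fell, against 12.9% and 15.5% of all genes. The largest changes were of Tnfrsf9 at 0.92 ± 0.318, Tnfrsf18 at 0.86 ± 0.167, Slamf6 at 0.32 ± 0.073 and Cd226, a CD155 receptor that competes with TIGIT, at -0.31 ± 0.106. The call of Cd226 (adjusted p = 0.0458 by edgeR) was kept in 3 of 8 fits that left out 1 library, with a highest adjusted p of 0.162. The call of Tnfrsf9 (adjusted p = 0.0498) was kept in 2 of 8 fits that left out 1 library, with a highest adjusted p of 0.124. In stimulated cells, where 9.84% of all genes were called, 2 rose and 0 fell, Tnfrsf18 by 0.41 ± 0.102 and Tnfrsf9 by 0.30 ± 0.07 (adjusted p = 0.0332 and 0.024 by edgeR). Leaving out 1 library kept these calls in 3 and 2 of 8 fits, with highest adjusted p-values of 0.104 and 0.0756. With the replicate block 5 rose in stimulated cells, where the block called 39.8% of all genes. Of the exon bases of Tnfrsf18, 27.2% lie opposite Gm16008. Over the 16 samples Gm16008 was at 4.98 CPM on average (without TMM factors) and Tnfrsf18 at 290 CPM.

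Of 9 other inhibitory receptors of T cells, 6 fell and 2 rose with PGE2 in unstimulated cells, with a median of -0.37 against -0.00102 over all genes, of which 15.5% fell and 12.9% rose. Lair1, a collagen receptor, fell at -1.60 ± 0.173 from 12.7 ± 1.84 to 4.14 ± 1.01 CPM, and Cd244a, which encodes 2B4, at -1.08 ± 0.243 from a mean of 1.23 to 0.58 CPM. Cd200r1, which encodes a receptor for CD200, was low and rose by 0.92 ± 0.270 from 0.682 ± 0.143 to 1.28 ± 0.339 CPM (adjusted p = 0.0249 by edgeR), a call kept in 4 of 8 fits that left out 1 library (highest adjusted p = 0.0804). Cd96, which shares the ligand CD155 with TIGIT, fell at -0.52 ± 0.054. In stimulated cells 2 fell and 1 rose, against 3.8% and 6.04% of all genes: Lair1 at -1.67 ± 0.207 (from 4.45 ± 0.689 to 1.39 ± 0.330 CPM), Ly9 at -0.26 ± 0.053 and Cd101 at 0.76 ± 0.206, the call of Cd101 being kept in 2 of 8 fits that left out 1 library (highest adjusted p = 0.13). With the replicate block 2 rose and 5 fell in stimulated cells, where the block called 39.8% of all genes. Stimulation without PGE2 raised 3 of 9 and lowered 4, where 31.7% of all genes were higher and 34.8% lower. The largest changes were of Slamf7 at 2.54 ± 0.118, Cd101 at -1.66 ± 0.149, Lair1 at -1.51 ± 0.149 and Cd200r1 at -0.75 ± 0.303. The call of Cd200r1 was kept in 2 of 8 fits that left out 1 library (highest adjusted p = 0.126). The interaction was called for Cd96, at 0.48 ± 0.082 (adjusted p = 0.00955 by edgeR).

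Among 13 cytoplasmic partners of the receptors, 4 rose and 3 fell with PGE2 in unstimulated cells, and the median was 0.00860, where 28.4% of all genes were called with a median of -0.00102. The largest change was of Ptpn6, which encodes the phosphatase SHP-1 that binds inhibitory tyrosine motifs, at -0.89 ± 0.054 (from 372 ± 11.2 to 199 ± 8.89 CPM, adjusted p = 2.98e-06 by edgeR). Pik3r1, a regulatory subunit of PI3K, rose by 0.41 ± 0.058, Grb7 rose by 0.59 ± 0.138, and Csk, a kinase that restrains Lck, fell at -0.30 ± 0.063. In stimulated cells, where 9.84% of all genes were called, Inpp5d, which encodes the lipid phosphatase SHIP-1, rose by 0.40 ± 0.098 and the other 12 were not called. The call of Inpp5d was kept in 3 of 8 fits that left out 1 library (highest adjusted p = 0.0997). With the replicate block 2 rose and 2 fell in stimulated cells, where the block called 39.8% of all genes. The interaction was called for Ptpn6, at 0.66 ± 0.098 (adjusted p = 0.00382 by edgeR). Stimulation without PGE2 raised 4 and lowered 6, where 31.7% of all genes were higher and 34.8% lower. The largest changes were of Pik3r1 at -1.47 ± 0.1, Grb7 at -1.08 ± 0.241, Ptpn6 at 0.67 ± 0.07 and Sh2d1a, which encodes the adaptor SAP of SLAM-family receptors, at 0.63 ± 0.073. Of the exon bases of Sh2d1a, 26.6% lie opposite Tenm1, which was at 0.0393 CPM on average.

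On stimulation with PGE2, where 64.2% of all genes were called, 3 ligands rose and 2 fell, 4 costimulatory receptors rose and 2 fell, 4 other inhibitory receptors rose and 2 fell, and 4 cytoplasmic partners rose and 3 fell. The ligands that changed most were Cd274 at 2.16 ± 0.219, Cd80 at 1.98 ± 0.236, Pdcd1lg2 at 1.97 ± 0.186 and Lgals3 at -0.75 ± 0.186. Among the costimulatory receptors they were Tnfrsf4 at 2.48 ± 0.306, Tnfrsf9 at 2.20 ± 0.209, Icos at 1.74 ± 0.244 and Slamf6 at -1.40 ± 0.082. Among the other inhibitory receptors they were Slamf7 at 2.47 ± 0.187, Lair1 at -1.55 ± 0.234, Cd101 at -1.16 ± 0.143 and Cd244a at 1.13 ± 0.289, and among the partners Grb7 at -1.54 ± 0.224, Ptpn6 at 1.36 ± 0.072, Pik3r1 at -1.26 ± 0.168 and Sh2d1a at 0.49 ± 0.124.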

How the data were processed

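RNA was extracted with the Monarch kit from 16 samples, and poly(A) libraries were made with the NEBNext Ultra kit and sequenced in paired-end mode on a NovaSeq6000. The authors aligned reads to GRCm38 (mm10) with HISAT2 2.0.5 and counted them per gene with featureCounts 1.5.0-p3; the submitters' processing notes also list DESeq2 1.20.0. The values deposited by the authors are raw gene counts, which were tested, and FPKM, scaled for gene length and depth. The annotation release and the strand option of counting are not given in the sources used here. Coordinates and exons came from GENCODE M21 on GRCm38, which matched the files' coordinates for all 8 members.

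The counts were tested with edgeR 4.0.16 in R 4.3.3 (filterByExpr with a minimum count of 10, TMM, glmQLFit, glmQLFTest, two-sided) with Benjamini-Hochberg adjustment over all genes tested. Pairwise fits held the 8 samples compared and the interaction fit all 16, without covariates. The fits were also run on counts simulated for PGE2 in stimulated cells, drawn without any tie between samples of like number. That run does not bear on the pairing of samples or on the other comparisons. The TMM factors lay between 0.88 and 1.09, and the biological coefficient of variation between 0.115 and 0.139. Replicates differed by more than counting error, with a chi-square of 8.46 to 56.8 per degree of freedom.

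Groups and replicate numbers came from the labels. Deviations from the group means correlated between same-numbered samples at 0.19 to 0.423 for PGE2 in stimulated cells, 0.137 to 0.444 for PGE2 in unstimulated cells and 0.112 to 0.359 for stimulation without PGE2, over 0.1 in 4 of 4 pairs each. Between samples of different numbers the correlations were -0.385 to 0.25, -0.378 to 0.124 and -0.28 to 0.125 in the same order. In stimulated cells, PGE2 replicate 2 correlated with untreated replicate 1 at 0.247, against 0.19 with untreated replicate 2. The numbers were taken to pair the samples in these comparisons, although some pairs of different numbers passed 0.1 as well. The main fits did not use this pairing, and the blocked fit is given where it changed a call. For stimulation with PGE2 only 2 of 4 same-numbered pairs passed 0.1.

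Alternatives were DESeq2 1.42.0, scaling by RLE or by upper quartiles, omission of the filter, a minimum of 10 counts in each sample, limma-trend 3.58.1 on FPKM with pseudocounts of 1 or 0.1 (mean FPKM at least 1, or any FPKM with a pseudocount of 1), replicate number as a block, a joint fit of the 16 samples, and omission of each library in turn.

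All 8 members were named, with up to 4 genes per related list and comparison that had the largest change among those called (Dpp4 with PGE2 in unstimulated cells was given beyond this rule), and the 3 genes most correlated with each member. The members and all lists were chosen with earlier results of these data known.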

Additional observations from a re-analysis of the deposited data

Results flagged for a closer look

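The effect of PGE2 on Pdcd1 differed between the states in the edgeR interaction test, by a log2 difference of -1.75 (stimulated minus unstimulated): PGE2 samples were above untreated samples in 4 of 4 replicate numbers without stimulation and in 1 of 4 with stimulation. The effect on Btla also differed, by 0.74, with PGE2 samples lower in 4 of 4 numbers of both states and by more without stimulation. In the 32 sets of 4 samples (8 transcripts in 4 groups), 0 samples passed Dixon's test for a single distant sample.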

How the results depend on the processing

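Over 772 refits of the 40 member results, 724 kept direction and call, 15 gained a call, 25 lost one and 8 changed sign. All 8 sign changes were of Entpd1, with values that ranged from -0.303 to 0.043 for PGE2 in stimulated cells (0.00877, 0.00989 and 0.043 where the sign changed) and from -0.0997 to 0.234 for the interaction (-0.00387, -0.0078, -0.0818, -0.0956 and -0.0997) when 1 library was left out. Of 8 members, the 2 called with PGE2 in stimulated cells became 4 with DESeq2, 0 with limma on log2(FPKM + 1) without a filter, 6 with the replicate block and 0 to 3 with 1 library left out. The 2 of the interaction became 0 in the 3 limma fits, 4 with the replicate block and 0 to 2 with 1 library left out. For stimulation with PGE2, where the numbers were not taken to pair samples, the block called Pdcd1 as well (adjusted p = 0.0361). Beyond these and the calls given beside the results, the block changed no member call. Over all genes, 1370 calls with PGE2 in stimulated cells (61.4% higher) became 5544 with the block (48% higher), 2064 with DESeq2, 2161 in the 16-sample fit, 679 with unfiltered FPKM and 630 to 1854 without 1 library. The 4122 calls in unstimulated cells became 6938 with the block. The 113 of the interaction (69% higher) became 408 with the block, 237 with DESeq2, 43, 53 and 37 with limma (37.2%, 50.9% and 29.7% higher) and 44 to 217 without 1 library. Upper-quartile factors shifted the median of all genes by -0.13 for stimulation with PGE2 and by -0.1 without, and no member changed direction. The causes were not tested. The low counts of Havcr2 in unstimulated cells and of Entpd1 limit their precision.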

Other observations

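Of 8 genes of the adenosine axis beside CD39, 2 rose and 1 fell with PGE2 in stimulated cells, and 3 rose and 2 fell in unstimulated cells, where 9.84% and 28.4% of all genes were called. With the replicate block 3 rose and 3 fell in stimulated cells, where the block called 39.8% of all genes. Nt5e, which encodes CD73, the enzyme that makes adenosine from AMP downstream of CD39, went from 40.6 ± 2.69 to 68.4 ± 3.42 CPM (SD, n = 4) with PGE2 in unstimulated cells and from 9.92 ± 2.66 to 24.3 ± 5.49 CPM in stimulated cells. The log2 rises were 0.77 ± 0.06 (SE, adjusted p = 8.11e-06 by edgeR) and 1.3 ± 0.206 (adjusted p = 0.00415). In unstimulated cells Ada, which encodes adenosine deaminase, fell at -0.55 ± 0.085 (from 14.9 ± 0.772 to 10.1 ± 0.835 CPM), and Adora2a, which encodes an adenosine receptor, rose by 0.48 ± 0.067 (from 38.5 ± 2.45 to 52.8 ± 3.04 CPM). Dpp4, which encodes CD26, a surface partner of adenosine deaminase, rose by 0.40 ± 0.058 in unstimulated and 0.59 ± 0.067 in stimulated cells. Slc29a1, a nucleoside transporter, fell at -0.46 ± 0.055 and at -0.42 ± 0.113, the latter call being kept in 2 of 8 fits that left out 1 library (highest adjusted p = 0.13). Stimulation without PGE2 lowered Nt5e by a log2 change of -2.06 ± 0.143 and Dpp4 by one of -1.18 ± 0.061, and raised the adenosine receptor genes Adora2b by 3.80 ± 0.341 and Adora2a by 1.41 ± 0.147, so that Nt5e fell together with Entpd1, at -1.04. With PGE2, stimulation raised 4 and lowered 3 of the 8, where 32.5% of all genes were higher and 31.7% lower. The largest changes were of Adora2b at 4.75 ± 0.270, Nt5e at -1.48 ± 0.129, Slc29a1 at 1.06 ± 0.112 and Dpp4 at -0.95 ± 0.070.

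Across the 16 samples, the genes with the log2 CPM most like each member, of 12252 genes compared, were Rgs2 (r = 0.96), Cnih2 and Zfp516 for Pdcd1, Cytip (r = 0.944), Xdh and Pank2 for Ctla4, Slc35c2 (r = 0.994), Fnbp1 and Exosc5 for Btla, Ipo5 (r = 0.998), Stip1 and Rars for Cd160, Csf2 (r = 0.989), Acot7 and Mad2l2 for Havcr2, Wsb1 (r = 0.982), Nr4a2 and Junb for Lag3, Tnfrsf18 (r = 0.985), Dock9 and Samsn1 for Tigit, and Zfand1 (r = 0.967), Rad51c and Kyat1 for Entpd1. Among the members themselves Btla and Cd160 (r = 0.963), Cd160 and Havcr2 (r = 0.953) and Pdcd1 and Tigit (r = 0.911) had high correlations, whereas Ctla4 and Pdcd1 had r = -0.02. These values are descriptions over samples that share 4 group means, so the difference between stimulated and unstimulated groups enters all of them.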
